A study of Mus musculus with 4 samples.

Results

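The genes described here encode C-type lectin receptors and scavenger receptors, surface proteins with which dendritic cells and macrophages bind sugars, microbes, dying cells and modified lipoproteins. They were chosen by name: every gene on the array whose symbol begins with Clec or Cd209, plus Mrc1, Mrc2, Mgl1, Mgl2, Ly75, Marco, Msr1, Cd163, Scarb1, Scarb2, Stab1 and Olr1, with older symbols accepted. This gave 50 of the 22221 named genes on the array, and 22 of the 50 had an intensity of 16 or more in 1 condition or more. Of all named genes 31% did so. An intensity of 16 lay close to the upper quartile of each array (15.7 to 17.0), and the array medians were 3.90 to 4.09. Mgl1 is given by its current symbol, Clec10a, and 2 genes, Clec18a and Clec2m, were found under older symbols.

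Dendritic cells had been grown from bone marrow of C57Bl/6 mice with GM-CSF and held for 16 h in 1 of 4 conditions, each read on 1 Affymetrix Mouse Gene ST 1.0 array of total RNA. The conditions were hypoxia with poly I:C, normoxia with poly I:C, hypoxia in media and normoxia in media. Poly I:C, a synthetic RNA duplex that stands in for viral RNA, was given at 10 µg/ml, and hypoxia is labelled as 0.5%, with the gas not named. All 4 cultures shared the growth factor and the strain, and such cultures hold macrophage-like cells beside dendritic cells. With 1 array per condition no difference has a replicate error or a p-value, and the spread between cultures is unknown. Higher and lower mean a difference of at least 2-fold between 2 arrays, which is 1 on the log2 scale. As a guide to noise, the difference of differences (the hypoxia difference with poly I:C less the hypoxia difference in media) had a robust SD over genes of 0.44, or 0.31 for a single difference if no gene responded to the combination.

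C-type lectin receptors share a compact sugar-binding fold, though some members bind proteins or lipids in place of sugar. Activating members such as Mincle and Dectin-2 signal through the adaptor FcRγ to the kinase Syk and the adaptor Card9, while inhibitory members such as DCIR carry tyrosine motifs that recruit phosphatases. The mannose receptor, DEC-205 and the galactose-type lectins take their ligands up for degradation or antigen presentation. Scavenger receptors are grouped by function and not by fold, and bind polyanionic ligands such as oxidised lipoproteins and bacterial surfaces.

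Markers of the treatments and of the cells were read on the same arrays. At both oxygen levels poly I:C put all 9 listed interferon-induced genes higher, and all 7 hypoxia markers reaching an intensity of 16 were higher in hypoxia in media. Of 12 dendritic cell markers 8 reached 16, with summed intensities of 4445 in hypoxia with poly I:C, 3450 in normoxia with poly I:C, 4045 in hypoxic media and 3282 in normoxic media. The remaining 4, Flt3, Zbtb46, Batf3 and Xcr1, which mark conventional dendritic cells, stayed at or below 3.83, 6.21, 11.2 and 3.54. Cd74, H2-Aa and H2-Ab1 were the largest parts of the dendritic cell sums, and single markers of that list moved in opposite directions. In the order of conditions above H2-Ab1 read 1402, 818, 1037 and 631, while Itgax read 268, 328, 425 and 615. All 13 macrophage markers reached 16, with sums of 6565, 6127, 6804 and 6710.02 in the same order of conditions. Lyz2, at 2856 to 3543, was the largest part of these sums, and single markers moved in opposite directions. In that order Fcgr1 read 650, 666, 21.1 and 44.7, Adgre1 50.5, 96.8, 90.9 and 174, and Apoe 144, 106, 280 and 116. Of 13 markers of neutrophils and their precursors 2 did, Mmp8 and Mmp9, and the list's sums were 139 and 154 with poly I:C in hypoxia and normoxia, against 629 and 509 in hypoxic and normoxic media. Mmp8 carried these sums, at 95.3 and 108 against 580 and 441 in the same order. Mmp9 read 5.63 and 5.36 against 12.6 and 31.9, and the rest of the list stayed at or below 6.89. Sums over 10 eosinophil, mast cell and basophil markers were 479 and 288 with poly I:C in hypoxia and normoxia, against 246 and 149 in hypoxic and normoxic media. Ear1 and Ear2, the 2 that reached 16, carried these sums, Siglecf read 7.29 and 7.29 against 15.1 and 11.8 in the same order, and the other 7 stayed at or below 4.40. Of 8 platelet and erythroid markers 4 reached 16, Ppbp, Pf4, Vwf and Car2. Ppbp read 2.47 and 3.12 with poly I:C in hypoxia and normoxia, against 18.4 and 110.4 in hypoxic and normoxic media. Pf4 read 16.8 and 13.6 against 21.1 and 44.5 in the same order. Both were thus highest in normoxic media, as were 8 of the 22 receptor genes and 34% of all genes reaching 16. Vwf and Car2 were not. In the same order Vwf read 30.1 and 21.3 against 68.1 and 32.7, and Car2 read 76.8 and 167 against 37.7 and 34.4. Of 5 plasmacytoid dendritic cell markers Bst2, which interferon induces, and Tcf4 reached 16, and Siglech stayed at or below 3.36. The part of these marker values in the receptor values was not tested. No marker of T, NK and B cells (0 of 9) or of stroma and endothelium (0 of 5) reached 16. In RNA from whole cultures, fewer cells of a type and less RNA per cell cannot be told apart.

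**Figure D1:**
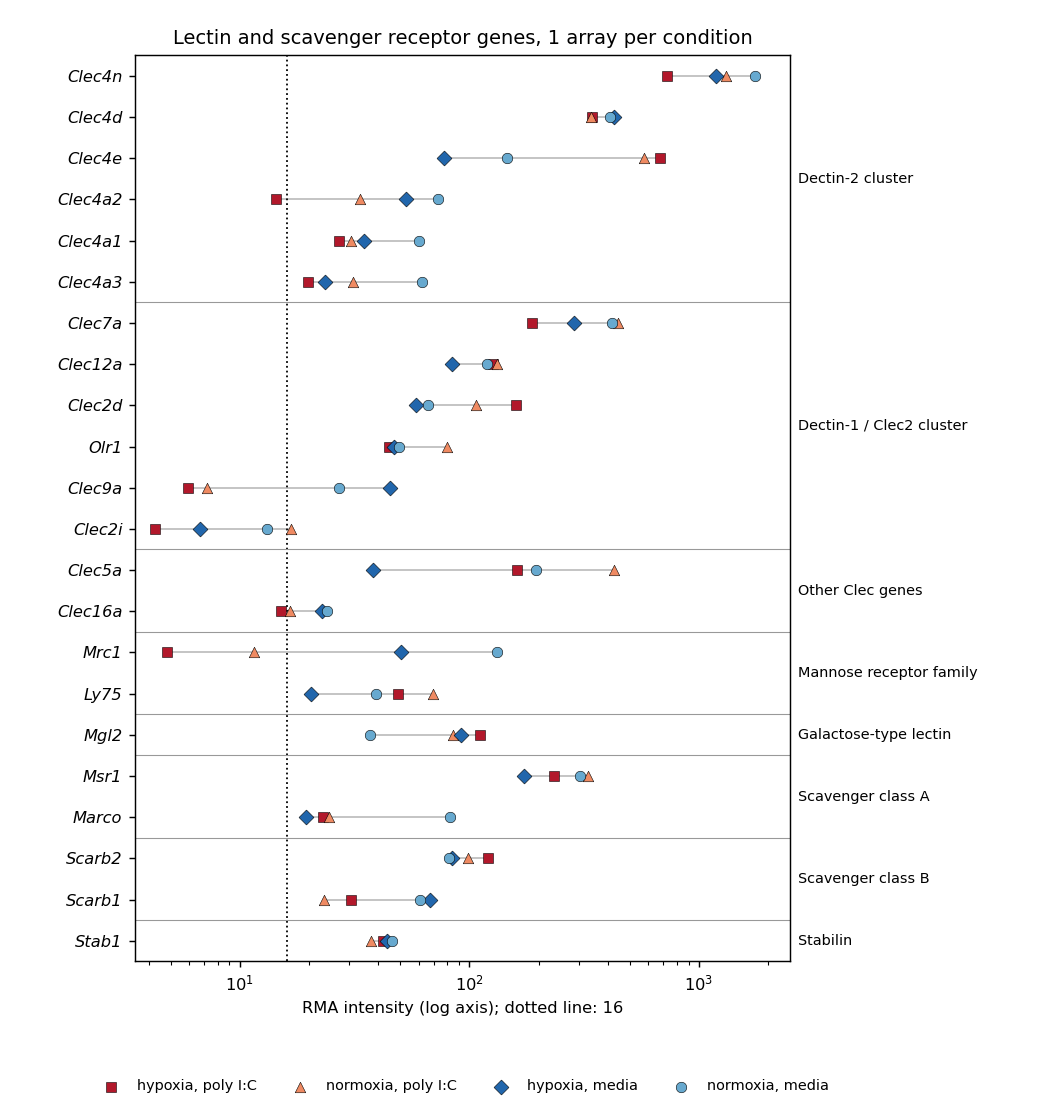
RMA intensity (log axis) of the 22 receptor genes reaching 16, with 1 symbol per condition, 1 array each, grouped by family, and a grey line over each gene's range. Mrc1 spans 4.81 to 131 with both poly I:C arrays lowest, Clec4e spans 77.5 to 679 with both poly I:C arrays highest, and Stab1, Clec4d and Scarb2 have their 4 symbols close together.

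Both poly I:C arrays lay above both media arrays for 5 genes (22.8% of all genes reaching 16) and below both for 8 (33.7%), shares near those of all genes. Signs agreed at both oxygen levels for 18 genes, 8 above 0 (31.9% of all genes) and 10 below 0 (45.8%). Both hypoxia arrays lay below both normoxia arrays for 8 of the 22 genes, where 18.3% of all genes did, and above both for 1, Mgl2, where 14.1% did. The 8 were Clec4n, Clec7a, Clec5a, Msr1, Marco, Olr1, Clec4a3 and Clec2i. Gaps of any size count here, as in the 18.3%. Hypoxia minus normoxia was only -0.07 in media for Olr1 and -0.09 with poly I:C for Marco. Both lie inside the noise guide for a single difference given above. After centring on the median of all genes Olr1 was at 0.02 in media, which takes it out of the 8. Clec2i reached 16 on the normoxic poly I:C array alone, at 16.8, which favours this pattern. The highest reading was that of hypoxia with poly I:C for 4 genes (22.8% of all genes), normoxia with poly I:C for 7 (18.4%), hypoxia in media for 3 (24.8%) and normoxia in media for 8 (34%). The lowest was that of hypoxia with poly I:C for 10 genes (36.6%), normoxia with poly I:C for 3 (19.4%), hypoxia in media for 7 (23.9%) and normoxia in media for 2 (20.1%), Mgl2 and Scarb2.

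The Dectin-2 cluster is a run of neighbouring genes on chromosome 6 that holds the closest relatives of Dectin-2. Its 9 genes stand in the order Clec4a1, Clec4a3, Clec4a4, Clec4b1, Clec4a2, Clec4b2, Clec4n, Clec4d and Clec4e, and 6 of them reached 16. Clec4e, which encodes Mincle, a receptor for mycobacterial cord factor and for a nuclear protein of dead cells, read 679 in hypoxia with poly I:C, 574 in normoxia with poly I:C, 77.5 in hypoxic media and 145 in normoxic media. Both poly I:C arrays were far above both media arrays, by 3.13 on the log2 scale in hypoxia and 1.98 in normoxia, and hypoxia minus normoxia was -0.91 in media and 0.24 with poly I:C. Clec4d, the immediate neighbour, encodes MCL, which pairs with Mincle at the cell surface. It read 340.1 in hypoxia with poly I:C, 337 in normoxia with poly I:C, 428 in hypoxic media and 410.1 in normoxic media. Its 4 values thus lay within 1.27-fold of each other, the poly I:C arrays below the media arrays by -0.33 in hypoxia and -0.28 in normoxia.

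Clec4n, next to Clec4d on its other side, encodes Dectin-2 itself, a receptor for fungal mannans. Its intensities were 722 in hypoxia with poly I:C, 1308 in normoxia with poly I:C, 1184 in hypoxic media and 1745 in normoxic media. Each single treatment was short of 2-fold, at -0.42 for poly I:C in normoxia and -0.56 for hypoxia in media, and the 2 together were at -1.27. The 3 adjoining genes Clec4e, Clec4d and Clec4n therefore gave 3 different profiles over the same arrays.

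The promoters of the neighbours Clec4e and Clec4d are printed as RefSeq gives them (GRCm38.p6, 250 bases before to 50 after the start of transcription, 5′ to 3′ on the gene's strand), because these adjacent genes differed in response to poly I:C. Capitals mark letters searched on both strands: ACGTG and GCGTG, the core of hypoxia response elements, the interferon-stimulated response element (ISRE) core, TTCNNNGAA, the STAT element, and GAGGAA, the core bound by the myeloid factor PU.1. The Clec4e window lies at chr6:123289822-123290121 on the minus strand and the Clec4d window at chr6:123261857-123262156 on the plus strand.
Clec4e: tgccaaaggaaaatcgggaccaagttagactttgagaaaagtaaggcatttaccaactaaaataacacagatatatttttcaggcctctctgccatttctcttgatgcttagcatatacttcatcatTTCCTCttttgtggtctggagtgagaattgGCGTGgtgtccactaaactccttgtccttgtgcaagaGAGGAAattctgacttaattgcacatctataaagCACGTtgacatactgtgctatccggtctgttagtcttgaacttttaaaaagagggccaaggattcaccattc
Clec4d: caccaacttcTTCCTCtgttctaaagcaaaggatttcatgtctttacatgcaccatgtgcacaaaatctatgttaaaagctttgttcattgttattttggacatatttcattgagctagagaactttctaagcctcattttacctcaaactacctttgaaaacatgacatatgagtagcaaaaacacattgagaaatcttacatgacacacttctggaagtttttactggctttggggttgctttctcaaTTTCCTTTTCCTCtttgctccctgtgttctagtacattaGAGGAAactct
On either strand the Clec4e window held both hypoxia response cores and 2 copies of GAGGAA, while the Clec4d window held the ISRE core, which overlaps a copy of GAGGAA, and 2 further copies of GAGGAA. Clec4n had no promoter in the table.

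The 3 DCIR genes of the cluster that reached 16 were highest on the normoxic media array. Clec4a2, which encodes the inhibitory receptor DCIR, read 14.3 in hypoxia with poly I:C, 33.3 in normoxia with poly I:C, 52.9 in hypoxic media and 72.8 in normoxic media. Poly I:C minus media was -1.88 in hypoxia and -1.13 in normoxia, and hypoxia minus normoxia was -1.22 with poly I:C and -0.46 in media. Clec4a1, another DCIR relative, read 26.9, 30.4, 34.6 and 60.1 in that order of conditions, and Clec4a3 read 19.7, 31.2, 23.5 and 61.9. Either treatment alone put these relatives well below normoxic media, with Clec4a3 at -1.40 and Clec4a1 at -0.79 for hypoxia and at -0.99 and -0.98 for poly I:C in normoxia. Where the cells were already hypoxic, poly I:C added -0.26 for Clec4a3 and -0.36 for Clec4a1. These are closely related genes, and although the deposited table flags none of the 50 probe sets as cross-hybridising, how far the probes keep them apart was not tested. The other cluster genes, Clec4a4, Clec4b1 and Clec4b2, stayed at or below 5.21.

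**Figure D2:**
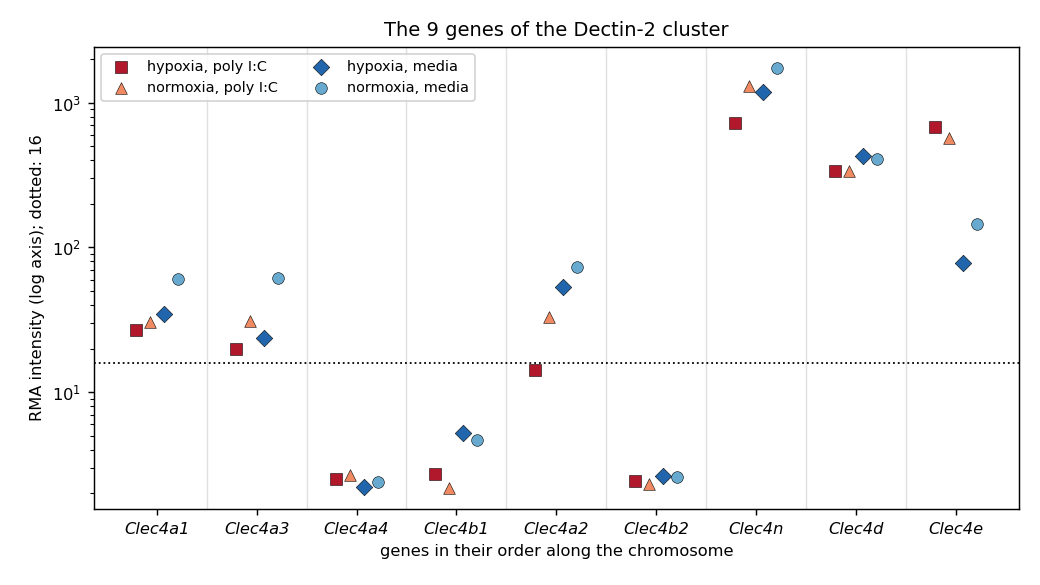
RMA intensity (log axis) of the 9 Dectin-2 cluster genes in their order along chromosome 6, with 1 symbol per condition and 1 array each; the dotted line is 16. Clec4e has both poly I:C arrays above both media arrays, its neighbour Clec4d has 4 values between 337 and 428, and Clec4a4, Clec4b1 and Clec4b2 lie below 16 on every array.

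A second group of lectin genes on chromosome 6 holds Dectin-1 and the Clec2 genes. Clec7a encodes Dectin-1, the receptor for fungal β-glucan, which signals to Syk through its own tail. It read 187 in hypoxia with poly I:C, 445 in normoxia with poly I:C, 284 in hypoxic media and 417 in normoxic media. Poly I:C left it nearly level in normoxia (0.10), whereas hypoxia minus normoxia was -1.25 with poly I:C and -0.55 in media, so both hypoxic arrays lay below both normoxic arrays. Olr1, which adjoins Clec7a and encodes LOX-1, a receptor for oxidised low-density lipoprotein, read 44.5, 80.1, 47.0 and 49.2 in the same order of conditions. The normoxic poly I:C array stood apart from the other 3, at 0.70 above normoxic media, and no pair of arrays differed 2-fold.

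Clec2d encodes Clr-b, the ligand by which mouse cells engage an inhibitory receptor of NK cells. It read 159 in hypoxia with poly I:C, 106 in normoxia with poly I:C, 58.7 in hypoxic media and 65.8 in normoxic media. Poly I:C minus media was 1.44 in hypoxia and 0.69 in normoxia, and the array with both treatments was the highest. Clec12a, the inhibitory receptor MICL, which binds uric acid crystals, read 126, 132, 84.1 and 119.5 in that order, and the hypoxic media array was lowest by -0.51. Clec2i, the Clr-g gene, passed 16 on the normoxic poly I:C array alone, where it read 16.8, against 4.28 in hypoxia with poly I:C, 6.70 in hypoxic media and 13.1 in normoxic media. Its entry by that array favours a low hypoxic value, and its -1.97 for hypoxia with poly I:C rests on dim signal.
The Clec2d promoter (chr6:129180365-129180664, plus strand, RefSeq GRCm38.p6) is shown because it held both hypoxia response cores and the ISRE core, each marked in capitals.
Clec2d: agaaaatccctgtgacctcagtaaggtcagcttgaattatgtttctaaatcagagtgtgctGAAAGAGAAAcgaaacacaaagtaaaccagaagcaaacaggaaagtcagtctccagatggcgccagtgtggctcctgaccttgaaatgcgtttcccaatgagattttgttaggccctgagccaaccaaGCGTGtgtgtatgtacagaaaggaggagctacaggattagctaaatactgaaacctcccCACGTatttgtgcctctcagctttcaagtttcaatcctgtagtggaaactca

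Clec9a encodes DNGR-1, which senses actin exposed by dead cells and marks cross-presenting dendritic cells. It read 5.94 in hypoxia with poly I:C, 7.19 in normoxia with poly I:C, 45.0 in hypoxic media and 27.1 in normoxic media. Both media arrays were above 16 and both poly I:C arrays below it, with poly I:C minus media at -2.92 in hypoxia and -1.91 in normoxia. With 16 added to every intensity these became -1.48 and -0.89, the second short of 2-fold. Xcr1 and Batf3, further markers of that dendritic cell subset, were dim in all 4 conditions, Xcr1 at 2.97 and 2.77 with poly I:C in hypoxia and normoxia, against 2.77 and 3.54 in hypoxic and normoxic media. Batf3 read 8.76 and 8.81 with poly I:C in hypoxia and normoxia, against 8.68 and 11.2 in hypoxic and normoxic media. Their part in the Clec9a result was not tested. The other genes of this group, Clec1a, Clec1b, Clec2e, Clec2g, Clec2h, Clec2m and Clec12b, stayed at or below 4.99.

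Clec5a, elsewhere on chromosome 6, encodes MDL-1, a receptor that signals through the adaptor DAP12 and binds dengue virus. It read 161 in hypoxia with poly I:C, 427 in normoxia with poly I:C, 37.8 in hypoxic media and 196 in normoxic media. The 2 treatments stood in opposite directions, with poly I:C minus media at 2.09 in hypoxia and 1.13 in normoxia and hypoxia minus normoxia at -1.41 with poly I:C and -2.37 in media. With both treatments the gene was at -0.28 from normoxic media, an array pair 1.22-fold apart. Tyrobp, which encodes DAP12, read 197 and 209 with poly I:C in hypoxia and normoxia, against 224 and 241 in hypoxic and normoxic media, a far narrower range. Clec16a, which despite its name encodes an endosomal protein that acts in the disposal of mitochondria, read 15.2, 16.5, 22.7 and 24.0 in the order of conditions above, and no pair differed 2-fold.
The Clec5a promoter (chr6:40585756-40586055, minus strand, RefSeq GRCm38.p6), shown because this gene stood apart under both treatments, held GAGGAA at 2 places, both in the reverse reading TTCCTC, and none of the other searched letters.
Clec5a: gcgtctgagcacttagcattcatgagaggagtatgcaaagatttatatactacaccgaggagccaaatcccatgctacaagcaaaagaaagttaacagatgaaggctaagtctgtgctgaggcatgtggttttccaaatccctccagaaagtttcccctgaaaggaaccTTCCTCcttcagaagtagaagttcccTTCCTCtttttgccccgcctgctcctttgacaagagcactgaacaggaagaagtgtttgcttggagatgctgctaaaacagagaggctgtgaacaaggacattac

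Endocytic lectins did not move together. Mrc1, which encodes the mannose receptor CD206, read 4.81 in hypoxia with poly I:C, 11.5 in normoxia with poly I:C, 50.1 in hypoxic media and 131 in normoxic media. The values of both poly I:C arrays were below 16, poly I:C minus media was -3.38 in hypoxia and -3.51 in normoxia, and hypoxia minus normoxia was -1.26 with poly I:C and -1.39 in media. The 4 values fitted equal log2 steps closely, with a difference of differences of 0.13. Both treatments against normoxic media gave -4.77, a size set by a reading of 4.81 that lies near the array median. With 16 added to every intensity before the logarithm the poly I:C differences became -1.67 in hypoxia and -2.42 in normoxia the value for both treatments -2.82 and the difference of differences 0.75, so the equal steps depend on readings near background. Hypoxia minus normoxia with poly I:C became -0.40 on that scale, short of 2-fold.
The Mrc1 promoter (chr2:14229164-14229463, plus strand, RefSeq GRCm38.p6) is shown because this gene had the widest range of the 22. It held GAGGAA 3 times, each as TTCCTC on the printed strand, and no other searched letters.
Mrc1: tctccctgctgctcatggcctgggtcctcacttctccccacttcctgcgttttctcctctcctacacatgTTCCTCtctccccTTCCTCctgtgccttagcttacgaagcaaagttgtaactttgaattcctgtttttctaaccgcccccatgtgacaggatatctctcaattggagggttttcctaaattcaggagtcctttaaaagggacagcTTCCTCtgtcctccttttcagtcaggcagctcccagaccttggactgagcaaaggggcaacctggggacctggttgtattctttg

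Ly75, of the same family, encodes DEC-205, with which dendritic cells take up antigen. It read 48.7 in hypoxia with poly I:C, 69.5 in normoxia with poly I:C, 20.5 in hypoxic media and 39.3 in normoxic media, so that poly I:C lay above media by 1.25 in hypoxia and 0.82 in normoxia and hypoxia lay below normoxia by -0.51 and -0.94 with and without poly I:C. Mgl2, the CD301b lectin for galactose and N-acetylgalactosamine, ran another way, at 112 in hypoxia with poly I:C, 85.1 in normoxia with poly I:C, 91.9 in hypoxic media and 36.7 in normoxic media. Normoxic media was the low array, and either treatment alone stood above it, by 1.21 for poly I:C and 1.32 for hypoxia. The combination was at 1.60, below the sum of the 2 single differences, which gave a difference of differences of -0.93. Its relative Clec10a (Mgl1) did not reach 16, with 7.61, 5.27, 11.4 and 5.48 in the same order. Mrc2, of the family of Mrc1 and Ly75, stayed at or below 5.19.

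Among the scavenger receptors, both class A genes had their hypoxic arrays below their normoxic arrays. Marco, which binds bacteria and particles, read 23.1 in hypoxia with poly I:C, 24.5 in normoxia with poly I:C, 19.4 in hypoxic media and 82.3 in normoxic media. Every treated array was between 19.4 and 24.5, and normoxic media stood alone above them. Hypoxia in media gave -2.09 and poly I:C in normoxia -1.75, while poly I:C in hypoxia gave 0.26 and hypoxia with poly I:C -0.09. The difference of differences, 2.00, was the largest of the 22 genes and stayed at 1.42 with 16 added to every intensity and at 2.02 with cyclic loess scaling. Msr1, the class A receptor for modified low-density lipoprotein, read 234 in hypoxia with poly I:C, 329.6 in normoxia with poly I:C, 173 in hypoxic media and 304 in normoxic media, with hypoxia minus normoxia at -0.49 with poly I:C and -0.81 in media.
The Marco promoter (chr1:120504975-120505274, minus strand, RefSeq GRCm38.p6), shown because of that difference of differences, held GAGGAA once and no other searched letters.
Marco: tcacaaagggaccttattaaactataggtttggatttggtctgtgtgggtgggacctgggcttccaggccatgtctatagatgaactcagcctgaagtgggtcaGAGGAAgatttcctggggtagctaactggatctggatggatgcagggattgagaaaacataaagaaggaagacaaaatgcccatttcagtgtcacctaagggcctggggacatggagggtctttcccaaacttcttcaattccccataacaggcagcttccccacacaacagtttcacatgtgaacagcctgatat

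The class B genes separated from each other. Scarb1 encodes SR-BI, the receptor through which cells exchange cholesterol with high-density lipoprotein. It read 30.4 in hypoxia with poly I:C, 23.3 in normoxia with poly I:C, 67.3 in hypoxic media and 60.7 in normoxic media, so poly I:C minus media was -1.15 in hypoxia and -1.38 in normoxia and oxygen made a difference of at most 0.39. Scarb2, which encodes the lysosomal membrane protein LIMP-2, read 121, 98.2, 84.0 and 81.3 in the same order, with no pair differing 2-fold. Stab1, the gene of stabilin-1, a clearance receptor of macrophages and sinusoidal endothelium, held between 37.3 and 46.0 in the 4 conditions, the narrowest range of the 22 genes at 1.23-fold. Cd163, the haemoglobin scavenger receptor of macrophages, was at 1.88 to 2.23.

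The 28 genes that did not reach 16 lay between 1.61 and 11.4. They included the whole Cd209 cluster: Cd209a, which encodes the mouse relative of DC-SIGN, read 2.83 in hypoxia with poly I:C, 2.02 in normoxia with poly I:C, 2.13 in hypoxic media and 2.13 in normoxic media, and Cd209b to Cd209g and Clec4g stayed at or below 3.49. Clec3a, Clec3b, Clec11a and Clec18a, whose products are secreted, were at or below 5.14, and Clec2l, Clec4f and Clec14a at or below 6.32. The genes nearest the limit were Clec2i (highest reading 16.8) and Clec16a (24.0) inside it and Clec10a (11.4) and Clec2l (6.32) outside it. Of the 22 genes inside, 17 reached 16 on all 4 arrays, where 71% of all genes reaching 16 did so, and the other 5 were Mrc1, Clec9a, Clec4a2, Clec16a and Clec2i. Mrc1 and Clec9a passed through the media arrays alone, which favours low readings with poly I:C.

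**Figure D3:**
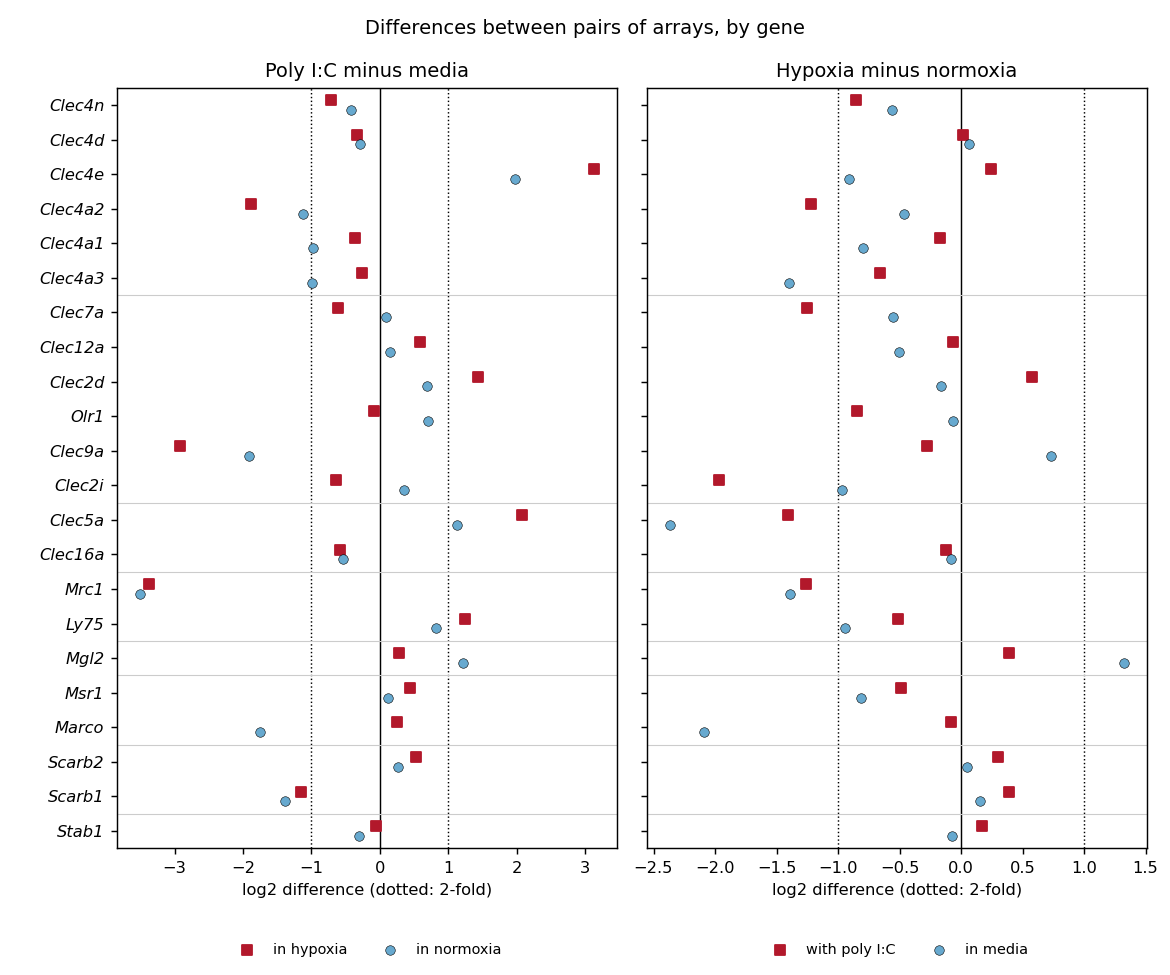
Log2 differences between arrays for the 22 genes: at the left, poly I:C minus media in hypoxia (squares) and in normoxia (circles), at the right, hypoxia minus normoxia with poly I:C (squares) and in media (circles); dotted lines mark 2-fold. Clec4e and Mrc1 lie at the 2 ends of the left panel, while in the right panel Clec5a is at -1.41 and -2.37 and Mgl2 is the one gene beyond 2-fold on the upper side.

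For poly I:C against media in normoxia, 3 of the 22 genes were higher, Clec4e, Mgl2 and Clec5a, and 5 were lower, Mrc1, Clec9a, Marco, Scarb1 and Clec4a2. Among all 6890 genes reaching 16, 8.42% were higher and 6.82% lower, and the median was -0.10, against -0.09 for the receptor genes. In hypoxia, poly I:C gave 4 higher, Clec4e, Clec5a, Clec2d and Ly75 (9.87% of all genes), and 4 lower, Mrc1, Clec9a, Clec4a2 and Scarb1 (8.1%). Clec4e and Clec5a were higher at both oxygen levels (6.6% of all genes were) and Mrc1, Clec9a, Clec4a2 and Scarb1 lower at both (3.51%). The count of 4 depends on dim readings: with 16 added to every intensity Mrc1 stayed 2-fold lower at both, while in normoxia Clec9a was at -0.89, Clec4a2 at -0.85 and Scarb1 at -0.97. Scarb1 is the 1 gene of the 4 that reached 16 on all 4 arrays, and Mrc1 and Clec9a were included through their media arrays. These 2 comparisons share no array.

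For hypoxia against normoxia in media, 1 gene was higher, Mgl2 (3.74% of all genes), and 4 were lower, Clec5a, Marco, Clec4a3 and Mrc1 (5.36%). The median was -0.53 for the receptor genes and -0.07 for all genes, and 17 of the 22 lay below 0. With poly I:C, none was higher in hypoxia (3% of all genes), none was so in both settings (1.76%), and 5 were lower, Clec2i, Clec5a, Mrc1, Clec7a and Clec4a2 (3.21%), with a median of -0.23 against -0.06 for all genes. Clec5a and Mrc1 were lower in hypoxia in both settings (1.18% of all genes), but with poly I:C both Mrc1 readings were under 16 and the difference was -0.40 with 16 added. By sign alone, 14 of the 22 lay below 0 in both (39.9%) and 4 above 0 in both (27.4%). These sign counts include values near 0. After centring on the median of all genes, Clec16a (0.005), Olr1 (0.02) and Stab1 (0.02) lay above 0 in media and Clec12a (0.004) with poly I:C. Stab1 counts among the 17 below 0 in media but not among the 14. No difference reached 2-fold in any of the 5 comparisons for 7 genes, Clec4d, Clec12a, Olr1, Clec16a, Msr1, Scarb2 and Stab1, where 66% of all genes had none. Counts this small move by large shares with a single gene. Among the 17 genes at 16 on all 4 arrays, 3 were lower in hypoxia in media and 2 with poly I:C, and the medians were -0.55 and -0.09.

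**Figure D4:**
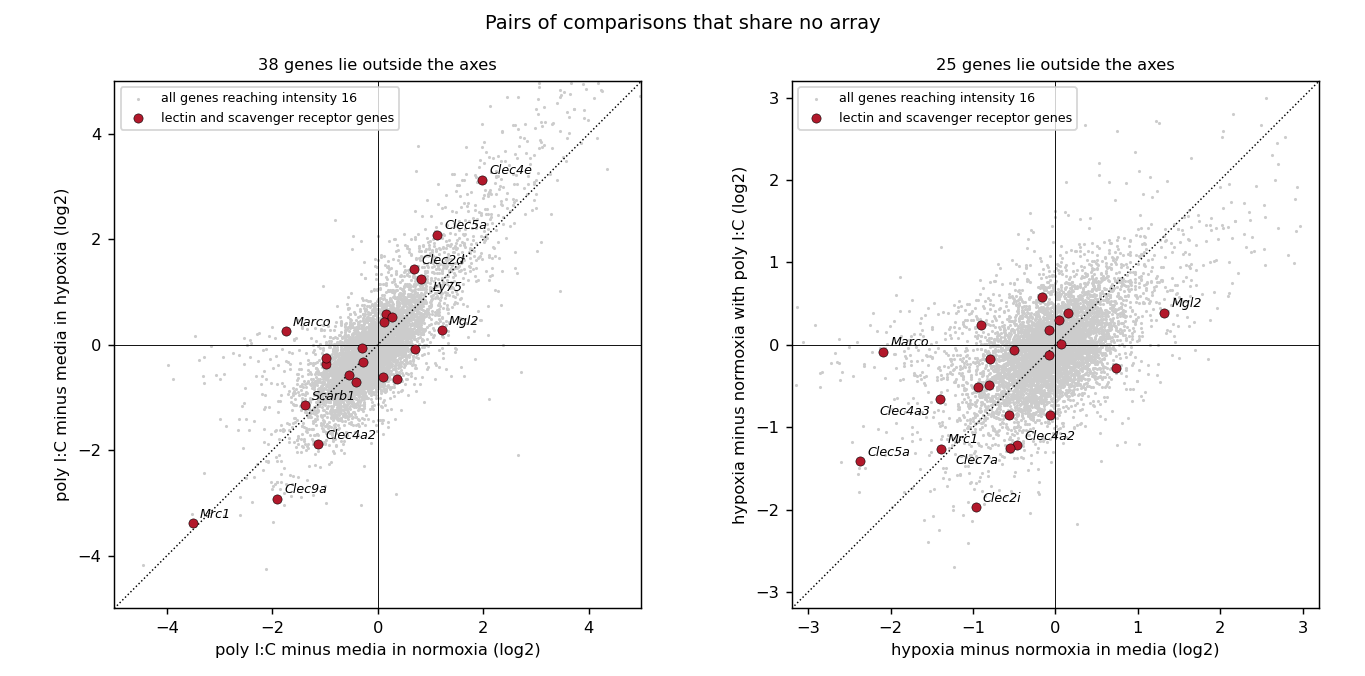
Log2 differences of 2 comparisons that share no array, receptor genes in red over all 6890 genes reaching 16 in grey; the left panel sets poly I:C minus media in hypoxia against the same in normoxia, the right panel sets hypoxia minus normoxia with poly I:C against the same in media, and 38 and 25 genes lie outside the axes. Marco lies far from the dotted line of equal values in both panels, and Mrc1 close to it in both.

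Hypoxia together with poly I:C, set against normoxia in media, gave 3 genes higher, Clec4e (2.23), Mgl2 (1.60) and Clec2d (1.27), where 11.6% of all genes were higher. Lower were 9, where 14% of all genes were, namely Mrc1 (-4.77), Clec4a2 (-2.35), Clec9a (-2.19), Marco (-1.83), Clec4a3 (-1.65), Clec2i (-1.61), Clec4n (-1.27), Clec7a (-1.16) and Clec4a1 (-1.16). With 16 added to every intensity 6 of the 9 stayed past 2-fold, with Mrc1 at -2.82 and Clec4a2 at -1.55, while Clec9a (-0.97), Clec4a1 (-0.83) and Clec2i (-0.52) were short of it. Cyclic loess scaling also left Clec4a1 short, at -0.98. Clec4n, Clec7a and Clec4a1 were short of 2-fold for poly I:C alone and for hypoxia alone. The median was -0.52, against -0.14 for all genes, and 16 of the 22 genes lay below 0. It was -0.27 for the 17 genes at 16 on all 4 arrays and -0.28 for the 16 genes reaching an intensity of 64. The difference of differences passed 2-fold upward for Marco and Clec4e (4.47% of all genes) and downward for Clec9a and Clec2i (2.42%), both from dim readings and just past the limit.

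**Figure D5:**
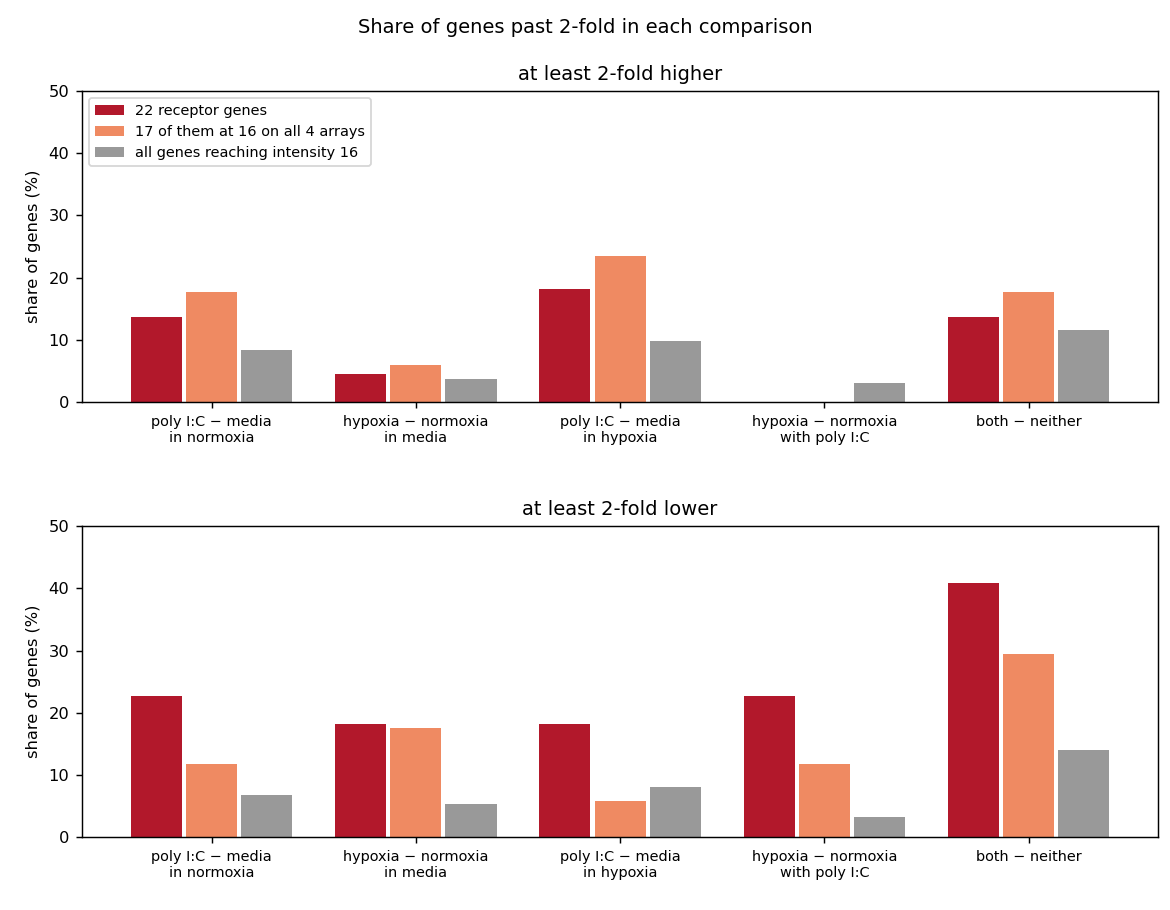
Share of genes at least 2-fold higher (top) and lower (bottom) in each comparison, for the 22 receptor genes, the 17 of them at 16 on all 4 arrays, and all 6890 genes reaching 16, with both treatments against neither at the far right. The receptor genes' tallest bar is the share lower with both treatments, 40.9%, against 14% of all genes. For the 17 genes it is 29.4%. The 6890 genes needed 16 on at least 1 array only, so their 14% is no like background for the 17.

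Genes that carry the signals of these receptors included some past 2-fold and some short of it. Of 27 listed adaptors and signalling genes 22 reached 16, with medians between -0.25 and -0.03 in the 5 comparisons. These medians give the shift of the list as a whole and not how far its single genes spread. Fcer1g, which encodes the FcRγ chain used by Mincle and Dectin-2, read 799 in hypoxia with poly I:C, 899 in normoxia with poly I:C, 546 in hypoxic media and 579.9 in normoxic media, and no pair of arrays differed 2-fold. Syk (78.4 and 77.7 with poly I:C in hypoxia and normoxia, against 115 and 105 in hypoxic and normoxic media) and Card9 (14.1 to 17.8) were also short of it. Among those past 2-fold, the kinase gene Fyn was at 1.47 and 1.52 for poly I:C in hypoxia and normoxia and at -1.06 and -1.01 for hypoxia with and without poly I:C. Fyn passed 16 on the normoxic poly I:C array alone, at 18.3, against 8.79 in hypoxia with poly I:C, 3.17 in hypoxic media and 6.39 in normoxic media. That entry favours its poly I:C difference in normoxia and its hypoxia difference with poly I:C. Ptpn6, the SHP-1 phosphatase recruited by inhibitory lectins, was at 1.14 for poly I:C in hypoxia, Src at 1.05 in that comparison and 1.03 with both treatments, and Egr2 at -1.01 with both. Src passed 16 on the hypoxic poly I:C array alone, at 19.5, which favours both of its differences. It read 15.2 in normoxia with poly I:C, 9.45 in hypoxic media and 9.54 in normoxic media.

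Related receptors outside the name rule gave further contrasts. Of 16 other scavenger receptor genes 7 reached 16. Cd36, a class B receptor for oxidised lipoprotein, read 182 and 389.7 with poly I:C in hypoxia and normoxia, against 549.8 and 959 in hypoxic and normoxic media, lower by -1.60 and -1.30 for poly I:C and by -1.10 for hypoxia with poly I:C. Cd14 was at 1.10 and 1.08 for poly I:C in hypoxia and normoxia, Cxcl16 at 1.09 in normoxia, Scarf1 at 1.56 in normoxia, Lrp1 at -1.10 in hypoxia, and Colec12 at 1.06 for hypoxia in media and -1.87 for poly I:C in hypoxia. Colec12 passed 16 on the hypoxic media array alone, at 32.3, which favours both of its differences. It read 8.86 in hypoxia with poly I:C, 14.1 in normoxia with poly I:C and 15.4 in normoxic media. Of 20 other genes with a lectin fold or an older Clec name 5 reached 16. Cd69, an activation marker that adjoins Clec2d on chromosome 6, read 225 and 201 with poly I:C in hypoxia and normoxia, against 4.40 and 5.91 in hypoxic and normoxic media. Cd93 was at -2.88 and -2.62 for poly I:C in hypoxia and normoxia, Klra2 at 2.48 and 2.80, and Cd72 at 1.95 and 2.27, with Cd72 also at -1.29 for hypoxia with poly I:C. Cd93 passed 16 through the media arrays alone, and Klra2 and Cd69 through the poly I:C arrays alone, which favours these directions.

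Promoters were listed for 19 of the 22 genes, and the first listed start of each was searched. GAGGAA, on either strand, stood in 12 of the 19, among 28.3% of all 27025 promoters and 27.5% of those of genes reaching 16. The genes with it were Clec4e, Clec4d, Clec4a1, Clec7a, Clec12a, Olr1, Clec5a, Clec16a, Mrc1, Mgl2, Marco and Stab1, which include genes higher and genes lower with either treatment. ACGTG stood in 2, against 19.7% of all promoters and 27.5% of those of genes reaching 16, and GCGTG in 4, against 32.5% and 53%. The ISRE core stood in 2, against 3.49% and 3.91%, and TTCNNNGAA in 1, Clec4a2, against 8.47% and 6.69%. A match describes letters in a 300-base window and is no binding site.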

How the data were processed

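The authors normalized the array files by RMA in Affymetrix Expression Console, per the submitters' processing notes and the design text. The deposited values are RMA intensity on a linear scale (28998 probe sets, 4 arrays). RMA makes array distributions alike, so a shift common to all genes is removed. Tool versions and annotation build, not given in the sources used here, remain unknown.

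Probe sets were named through RefSeq accessions (18698), current symbols (2207) or synonyms (1750) of a GRCm38.p6 gene table used for names and gene order, and 2269 kept the file's symbol. Per gene the probe set with the highest mean was used, and 1 receptor gene, Clec4g, had several. Log2 was taken with no pseudocount, genes needed 16 on at least 1 array, and all 22 receptor genes passing were named. Alternatives changed the floor, pseudocount, scaling (limma 3.58.1 for cyclic loess), probe set rule and threshold. The steps were tested on simulated data. Members, lists and settings were chosen with earlier results of these data known. Other listed genes are named where past 2-fold, up to 4 per list and comparison, apart from the adaptors Fcer1g, Tyrobp, Syk and Card9 and the markers beside Clec9a, chosen for their role. Of the genes this rule would name, 1 is not reported here.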

Additional observations from a re-analysis of the deposited data

Results flagged for a closer look

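For Marco, poly I:C minus media had opposite signs at the 2 oxygen levels, 0.26 in hypoxia and -1.75 in normoxia, which is why it deserves a second look. With 1 array per condition the difference between these values was not tested, and 0.26 is within the 0.31 noise guide for a single difference.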

How the results depend on the processing

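No paired analysis was possible because each condition has 1 array. Of 42 differences past 2-fold in the 22 genes, none changed sign under any alternative, 42 stayed past 2-fold after centring, 41 with cyclic loess and 27 with 16 added to each intensity, which shrinks dim readings. Cyclic loess moved the median of all genes to at most 0.01 in size with poly I:C or both treatments, from -0.14 with both and -0.11 for poly I:C in hypoxia. With 16 added, genes lower numbered 2 in place of 5 for poly I:C in normoxia, 2 in place of 5 for hypoxia with poly I:C, and 0 in place of 2 for the difference of differences. A floor of 64 left 16 genes, with 5 in place of 9 lower for both treatments and 0 in place of 2 for the difference of differences. With no floor, 2 in place of 1 were higher in hypoxia in media, and the medians became 0 in that comparison and 0.05 with both treatments. The receptor genes' median for poly I:C in hypoxia, -0.17 over the 22, changed sign under 2 settings. It became 0.27 with a floor of 64 and 0.26 for the 17 genes at 16 on all 4 arrays. For the 17 genes at 16 on all 4 arrays, a setting chosen after seeing the data, genes lower numbered 2 for poly I:C in normoxia, 1 for it in hypoxia, 2 for hypoxia with poly I:C, 5 for both treatments and 0 for the difference of differences. At 3-fold, 1 was higher and 3 lower for poly I:C in normoxia, 0 and 2 for hypoxia in media, 2 were higher for poly I:C in hypoxia, 1 was lower for hypoxia with poly I:C, and the difference of differences gave 1 and 0. At 1.5-fold, 6 were higher for poly I:C in normoxia, 2 higher and 9 lower for hypoxia in media, 7 lower for poly I:C in hypoxia, 8 lower for hypoxia with poly I:C, and 6 and 6 for the difference of differences.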
